A study of Homo sapiens with 3 samples.

Results

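The stanniocalcins STC1 and STC2 were examined in RNA-seq data from Caki-1 cells depleted of RBCK1. STC2 was 4.89-fold and 4.45-fold lower with the RBCK1 siRNAs than with si-Control, while its paralog STC1 was not lower with either. Both genes were taken by symbol, 2 of the 44591 genes in the deposited table. They were chosen by their level with each RBCK1 siRNA set against si-Control, so that difference is described below and not tested. Caki-1 is an established human line labelled as clear cell renal cell carcinoma, and all cells received an siRNA by transfection. RNA was taken after 48 h from cells given a non-targeting siRNA (si-Control) or an siRNA that targets RBCK1, of which there were 2, si-RBCK1 #1 and si-RBCK1 #2 (si-HOIL-1#1 and si-HOIL-1#2 in the labels). RBCK1, also called HOIL-1, is a ubiquitin ligase and a subunit of the linear ubiquitin chain assembly complex. Each condition is represented by 1 library (3 in all). No difference described here can therefore be set against the spread between cultures, and the siRNAs are separate reagents rather than replicates.

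Stanniocalcins are secreted glycoprotein hormones that form disulfide-linked dimers. They were first known in fish, where they lower blood calcium, and in mammals they act mostly within tissues, the kidney among them, on calcium and phosphate handling. Both human proteins also inhibit the pappalysin proteases, which release insulin-like growth factors (IGFs) by cutting their binding proteins. Transcription of STC2 is known to be raised by the ATF4 branch of the stress response, by hypoxia and, in breast cancer cells, by estrogen, and STC1 is likewise known as a hypoxia-induced gene.

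The siRNAs are shown because a short match to the seed of a guide can lower transcripts other than its target. Their sense strands are given 5′ to 3′, and the capitals mark the bases that pair with guide bases 2 to 8, the seed:
si-RBCK1 #1: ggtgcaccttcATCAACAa
si-RBCK1 #2: ggattaccagcGATTTCTa
Each sense strand is found whole in the longest protein-coding RBCK1 transcript. The 7-base seed match of si-RBCK1 #1 occurred 0 times in the longest STC2 transcript and 0 times in that of STC1, and that of si-RBCK1 #2 likewise occurred 0 times in each. Of 10553 protein-coding genes searched, 23.8% held a match for si-RBCK1 #1 and 29.2% for si-RBCK1 #2. Shorter matches and those of the sense strand itself were not searched.

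In the coordinates of the table, for which the labels name the hg19 build, STC2 lies on chromosome 5 from 172741726 to 172756506 and STC1 on chromosome 8 from 23699434 to 23712320, each on the minus strand. No other gene of the table overlapped STC1 or STC2 on either strand (0 genes for each). In the GENCODE v29 annotation, which is on GRCh38, the longest protein-coding transcript of each gene has 4 exons, all of them coding in part. The middle coding exons are of equal length in both genes, 143 nt and 212 nt. The coding parts of the outer exons differ, at 151 nt and 400 nt in STC2 and 118 nt and 268 nt in STC1, which gives 302 codons for STC2 and 247 for STC1. Most of each transcript is untranslated, with a 3′ UTR of 3134 nt in STC2 and 2855 nt in STC1. The transcripts shared 0 stretches of 25 nt on either strand, so their reads are separable at that length.

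The deposited values are RPKM, reads divided by the length of the gene in kilobases and by the size of the library, which allow levels of different genes to be compared. Steps between the values of short RNAs gave totals of 36926834, 40442939 and 36344428 reads for the si-Control, si-RBCK1 #1 and si-RBCK1 #2 libraries. From these, the smallest whole reads and length that give each gene's values were found. The true reads of a gene can be a whole multiple of these. Its ratios would then be unchanged, but its intervals would be too wide. The gene lengths found with the reads were 5343 nt for STC2 and 3877 nt for STC1, against 5353 nt and 3883 nt for the GENCODE transcripts. Intervals (95%) are exact, rest on these reads and cover counting error only. RBCK1, the targeted gene, was at 33.3, 9.97 and 12.3 RPKM in these libraries, in that order. The line's labelled origin was set against 12 renal and epithelial markers, of which 6 reached a mean of 1 RPKM. Among them the renal lineage factor PAX8 was at 124, 82.5 and 107 RPKM, while PAX2, CDH16 and CA9 were below 1 RPKM in every library. The epithelial keratin KRT8 (log2 ratios of 1.38 and 1.84) and the intermediate filament gene VIM (1.19 and 1.07) were higher with both siRNAs. Of 10 markers of other cell types, 8 were below the same mean, with the T cell gene CD3E at 0 in every library. The other 2 were well above or past it, CD68 at 41.8, 51.0 and 52.3 RPKM and COL1A1 at 4.68, 3.21 and 4.41 RPKM. In cultures measured in bulk, fewer cells that make a transcript and less of it per cell cannot be told apart.

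STC2 was at 353 RPKM with si-Control (69617 reads, interval 350.2 to 355 RPKM), at 72.1 RPKM with si-RBCK1 #1 (15579 reads, interval 71.0 to 73.2) and at 79.3 RPKM with si-RBCK1 #2 (15398 reads, interval 78.0 to 80.6). The si-Control library stood apart from both siRNA libraries, whose own levels lay close together. On reads, STC2 with si-RBCK1 #1 was at 20.4% of its si-Control level (20.1% to 20.8%), while in the other siRNA library it was at 22.5% (22.1% to 22.9%). The log2 ratios of log2(RPKM + 1) values, the scale used for all genes, were -2.28 and -2.14. Both comparisons use the same si-Control library, so a difference of that culture and an effect of the siRNAs cannot be told apart.

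STC1 was at 9.42 RPKM with si-Control (1349 reads, interval 8.93 to 9.94), at 10.3 RPKM with si-RBCK1 #1 (1617 reads, 9.82 to 10.8) and at 12.7 RPKM with si-RBCK1 #2 (1784 reads, 12.1 to 13.3). Its level was thus lowest with si-Control, and the intervals of si-Control and si-RBCK1 #1 overlapped. On reads, STC1 with si-RBCK1 #1 was at 109% of si-Control (102% to 118%), while with the other siRNA it was at 134% (125% to 144%). The log2 ratios were 0.12 and 0.39 on the log2(RPKM + 1) scale, beside medians of 0.02 and 0.03 over all 12403 genes that passed the filter, a mean over the libraries of 1 RPKM or more.

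**Figure D1:**
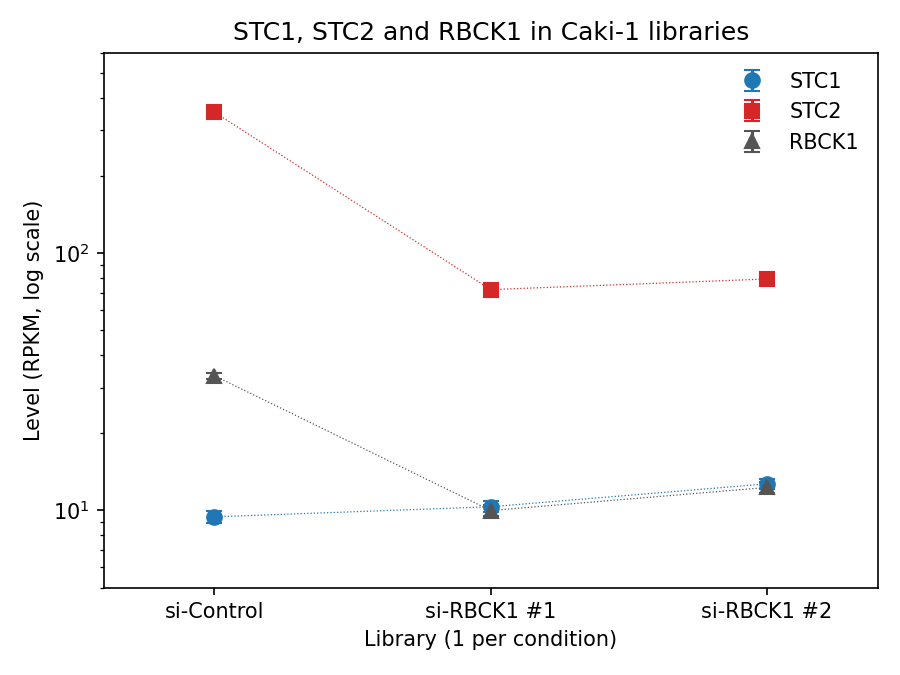
Levels of STC1 (circles), STC2 (squares) and the targeted gene RBCK1 (triangles) in the 3 Caki-1 libraries, in RPKM on a log scale, with exact 95% intervals for counting error as bars (smaller than the symbol for STC2). STC2 drops from 353 RPKM to 72.1 and 79.3 RPKM, and STC1 stays between 9.42 and 12.7 RPKM.

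The paralogs therefore came closer together. Per length, STC2 was 37.4 times as abundant as STC1 with si-Control, 6.99 times with si-RBCK1 #1 and 6.26 times with si-RBCK1 #2. The ratio of STC2 to STC1 reads, in which any scaling of the libraries cancels, was 5.36-fold higher in si-Control than with si-RBCK1 #1 (exact conditional interval 4.97 to 5.77) and 5.98-fold higher than with si-RBCK1 #2 (5.56 to 6.44). STC1 made up 2.60% of the summed RPKM of the pair with si-Control, 12.5% with si-RBCK1 #1 and 13.8% with si-RBCK1 #2. That sum went from 362 RPKM to 82.4 and 92.0 RPKM, all of the loss being in STC2.

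Between the siRNAs themselves, STC2 with si-RBCK1 #2 was at 110.0% of its level with si-RBCK1 #1 (108% to 112%) and STC1 at 123% (115% to 131%). RBCK1 was also at 123% (115% to 131%) in that comparison. Each of these differences lay outside counting error, and whether it lay outside the spread between cultures could not be tested with 1 library each.

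Among the 10775 protein-coding genes whose mean over the libraries reached 1 RPKM, STC2 ranked 145 by level with si-Control, 856 with si-RBCK1 #1 and 751 with si-RBCK1 #2, counted from the most abundant. STC1 ranked 5610, 5374 and 4737 in the same order, near the middle of the range. Over all 12403 genes that passed the filter, 3.27% were at least 2-fold lower with si-RBCK1 #1, 2.27% with si-RBCK1 #2 and 1.41% with both. STC2 was among them in each case, as its choice fixed. At least 2-fold higher were 2.91% with si-RBCK1 #1, 2.5% with si-RBCK1 #2 and 1.46% with both, and STC1 was not among these.

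By the smaller of its log2(RPKM + 1) ratios in size, STC2 had the third largest fall of a protein-coding gene, after the linker histone gene H1F0 (-2.44 and -2.81) and the potassium channel gene KCNH1 (-2.42 and -2.30). It was followed by the cytokine gene IL6 (-1.98 and -2.30) and by EVI2A (-1.93 and -2.18). The genes ahead of it started from 33.4 RPKM (H1F0) and 5.19 RPKM (KCNH1) with si-Control. The place in this order depends on the pseudocount, which weighs on genes of low level: STC2 ranked 7 with 0.1 RPKM in place of 1 RPKM and 1 with 5 RPKM. Of 522 protein-coding genes at 100 RPKM or more with si-Control, 28 were at least 2-fold lower with both siRNAs. STC2 alone among them was at least 4-fold lower with both. Over all genes that passed the filter, 1.41% were at least 2-fold lower with both. The set of 522 was picked on the si-Control level alone, which tilts it towards falls, and rises in it were not counted. STC2 entered it through that library only, being at 72.1 and 79.3 RPKM with si-RBCK1 #1 and si-RBCK1 #2. Its place in this set is therefore a description and not a test. The loss of STC2 in RPKM, 281 with si-RBCK1 #1 and 274 with si-RBCK1 #2, ranked 15 among protein-coding genes in each library. By the smaller of its log2(RPKM + 1) ratios in size, STC1 ranked 3695 from the largest rise, between THADA (0.12 and 0.12) and TOR1A (0.40 and 0.12).

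**Figure D2:**
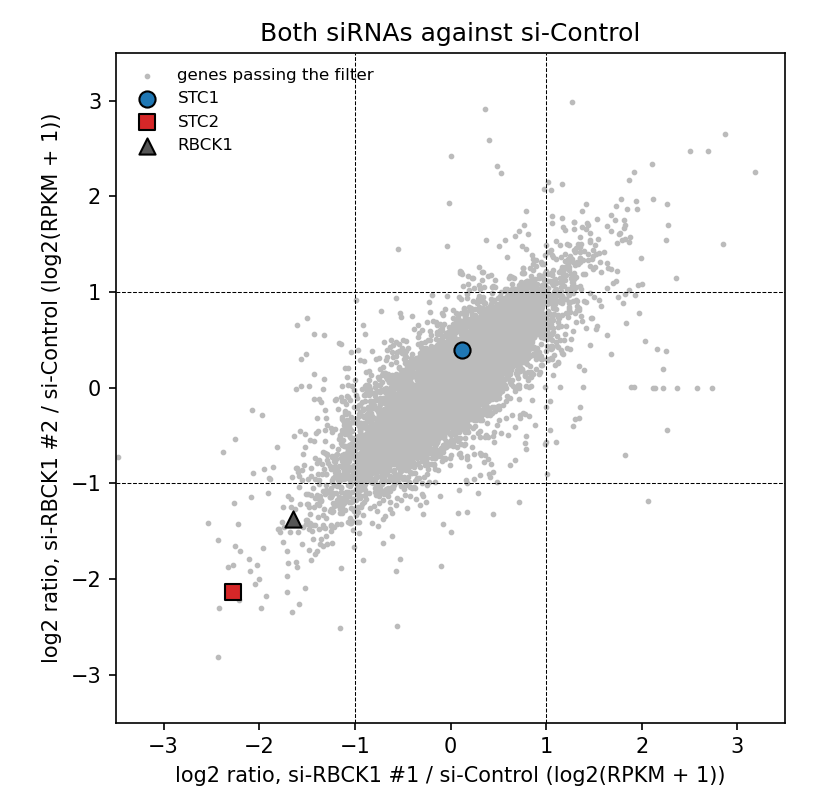
Log2 ratios to si-Control with si-RBCK1 #1 (horizontal) and si-RBCK1 #2 (vertical), on the log2(RPKM + 1) scale, for the 12403 genes that passed the filter (grey), with STC1, STC2 and RBCK1 marked and dashed lines at 2-fold. STC2 lies at -2.28 and -2.14, beyond RBCK1 at -1.65 and -1.37, and STC1 lies at 0.12 and 0.39, inside the dashed lines.

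The genes nearest to each member in this plane were found by the distance between their pairs of log2 ratios, which rest on 3 libraries and share the si-Control library. For STC2 they were KCNH1 at a distance of 0.22, SNTB1 (a syntrophin, -2.27 and -1.85) at 0.29, IL6 at 0.34, EVI2A at 0.35 and SYT1 (a calcium sensor of synaptic vesicles, -2.02 and -1.85) at 0.39. KCNH1, at 5.19, 0.159 and 0.255 RPKM, and SYT1, at 3.35, 0.0696 and 0.207 RPKM, were below the pseudocount of 1 RPKM with both siRNAs. EVI2A, at 6.61, 1.00 and 0.686 RPKM, was near the pseudocount with si-RBCK1 #1 and below it with si-RBCK1 #2. The pseudocount shrinks the ratios of KCNH1, SYT1 and EVI2A. Without it each of them fell farther than STC2, so their nearness depends on it. For STC1, which lies in the dense middle, they were CAT (catalase, 0.12 and 0.39), C18orf32, EVA1B, PCSK7 (a proprotein convertase) and TNS3 (a tensin), at distances from 0.0040 to 0.017.

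For the pathways around the hormones, 8 lists with 133 distinct genes were read, of which 102 passed the filter. Of the 102, 15 (14.7%) were at least 2-fold lower with si-RBCK1 #1 and 10 (9.80%) with si-RBCK1 #2, beside 3.27% and 2.27% of all genes. At least 2-fold higher were 2 (1.96%) and 3 (2.94%), beside 2.91% and 2.5%. The lists were written with earlier results of these libraries known, so these shares are descriptions. The shares of all genes apply to the counts of each list below as well. With both siRNAs, 1.41% of all genes were at least 2-fold lower and 1.46% higher.

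The IGF axis holds the protease targets of the stanniocalcins. Of 18 genes, 11 passed the filter, and their median log2 ratios were -0.30 for si-RBCK1 #1 and 0.04 for the other siRNA, the latter -0.0078 with libraries scaled to equal medians. At least 2-fold lower with both siRNAs were 2 genes, and 0 were 2-fold higher with either. One was the protease gene PAPPA2, at 3.83, 1.18 and 0.954 RPKM in si-Control, si-RBCK1 #1 and si-RBCK1 #2 (log2 ratios of -1.15 and -1.31), which no longer counted with a pseudocount of 5 RPKM. The other was IGFBP3, the gene of the main carrier of IGFs in serum, at 66.4, 14.9 and 29.5 RPKM (-2.08 and -1.14). PAPPA, the gene of the other pappalysin, was low throughout, at 1.56, 0.983 and 0.692 RPKM (at least 316, 218 and 138 reads), with log2 ratios of -0.37 and -0.60 on the log2(RPKM + 1) scale. On reads, its log2 ratios were -0.67 (-0.92 to -0.41) and -1.17 (-1.47 to -0.88), and with a pseudocount of 0.1 RPKM 3 genes of the list were 2-fold lower with si-RBCK1 #2. Of other binding protein genes, IGFBP4, whose product is a known PAPPA substrate, was at 3.34, 4.21 and 5.19 RPKM (0.26 and 0.51). IGFBP5, whose product is another, and IGFBP2 were below 0.04 RPKM in every library. Among the hormones and receptors, IGF1 was listed at 0 in every library, IGF2 was at 0.844, 0.882 and 1.59 RPKM, and the receptor gene IGF1R was at 4.54, 6.38 and 6.19 RPKM (0.41 and 0.38). The most abundant member, IGFBP7, was at 739, 600.2 and 761 RPKM.

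Intracellular STC2 is known to bind STIM1, the calcium sensor of the endoplasmic reticulum that opens the ORAI channels when stores are empty. In this list of 13 genes, 11 passed, with medians of 0.10 and 0.17, and 1 was at least 2-fold lower with si-RBCK1 #1 and 0 with si-RBCK1 #2. STIM1 was at 27.3, 20.9 and 21.5 RPKM (-0.37 and -0.33) and the channel gene ORAI1 at 20.1, 32.9 and 33.4 RPKM (0.68 and 0.70). The gene past the limit was HMOX1, heme oxygenase 1, another reported partner of STC2, at 68.2, 16.9 and 37.3 RPKM (-1.95 and -0.85). The siRNAs thus gave unlike levels of HMOX1, where they gave like levels of STC2.

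STC1 is known to act on mitochondria and to raise the uncoupling protein UCP2 in some cells. The 8 genes of mitochondrial calcium and uncoupling that passed, of 10, had medians of 0.05 and -0.07, and on the log2(RPKM + 1) scale 0 were past 2-fold in either library. UCP2 was at 8.62, 10.8 and 17.7 RPKM (at least 262, 361 and 528 reads), log2 ratios of 0.30 and 0.96 on that scale. On reads its log2 ratio with si-RBCK1 #2 was 1.03 (0.82 to 1.25), and with a pseudocount of 0.1 RPKM 1 gene of the list was past 2-fold there. Like STC1, UCP2 was lowest with si-Control and highest with si-RBCK1 #2, but so were genes of other lists, among them ORAI1 and IGFBP4. A link between STC1 and UCP2 was not tested.

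Of 19 genes of phosphate and calcium transport and its hormones, 8 passed, with medians of -0.25 and -0.39. The renal phosphate carriers SLC34A1 and SLC34A3, the calcium-sensing receptor CASR and the parathyroid hormone receptor PTH1R were all under 1 RPKM in every library. The widely used phosphate carrier SLC20A1 was at 67.5, 119 and 71.6 RPKM (0.81 and 0.08). The plasma membrane calcium pump ATP2B1 was the 1 gene past 2-fold, lower with both siRNAs, at 74.3, 29.3 and 26.3 RPKM (-1.31 and -1.46).

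Among the known inducers of STC2, the integrated stress response joins kinases that sense stress, the translation factor they modify, ATF4 and its targets. All 21 genes passed, and the median was -0.61 in each siRNA library. At least 2-fold lower were 7 of the 21 genes with si-RBCK1 #1 and 5 with si-RBCK1 #2, beside 3.27% and 2.27% of all genes. None was 2-fold higher with either. With a pseudocount of 5 RPKM, 3 in place of 7 were past the limit with si-RBCK1 #1. The 5 lower with both were ASNS (asparagine synthetase, -1.40 and -1.71), SLC7A11 (the cystine transporter, -1.47 and -1.32), TRIB3 (a pseudokinase, -1.48 and -1.25), DDIT4 (an mTORC1 inhibitor, -1.22 and -1.46) and PPP1R15A (the phosphatase subunit that ends the response, 176, 87.5 and 72.5 RPKM). ATF4 mRNA itself was at 134, 110 and 96.0 RPKM (-0.28 and -0.48), a smaller difference than that of these targets, and ATF4 is regulated largely at translation, which these data do not measure. The sensor kinase genes EIF2AK1 (0.60 and 0.56) and EIF2AK4 (0.29 and 0.24) were higher than with si-Control in both libraries. EIF2AK2 (-0.02 and 0.14) and EIF2AK3 (-0.03 and 0.26) were higher with si-RBCK1 #2 only. No member fell as far as STC2 in either library.

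The unfolded protein response list, which covers the other branches of stress in the endoplasmic reticulum, had medians of 0.27 and 0.33 over its 14 genes. Its chaperone gene HSPA5 was at 804, 663 and 733 RPKM (-0.28 and -0.13), while SDF2L1, a component of a chaperone complex there, was at 6.85, 26.0 and 29.9 RPKM (1.78 and 1.98). At least 2-fold higher were 1 gene, SDF2L1, with si-RBCK1 #1 and 2 with si-RBCK1 #2, the other being the disulfide isomerase gene PDIA4 (0.66 and 1.15). The 14 genes lay on both sides of si-Control, and 0 were 2-fold lower with either siRNA, or 1 with si-RBCK1 #2 after scaling to equal medians or totals.

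The HIF pathway, which is held in check by VHL, is known to induce both stanniocalcins. Of 28 genes, 26 passed, with medians of 0.03 (-0.022 after scaling to equal totals) and 0.17, 4 at least 2-fold lower with si-RBCK1 #1 and 2 with si-RBCK1 #2, and 0 higher. With si-RBCK1 #2, 1 was lower with a pseudocount of 5 RPKM and 1 higher with 0.1 RPKM. The factor gene HIF1A was at 171, 77.2 and 105 RPKM (-1.14 and -0.70) and VEGFA, the angiogenic ligand, at 63.7, 25.7 and 29.3 RPKM (-1.28 and -1.09), the 1 gene 2-fold lower with both on the log2(RPKM + 1) scale. ADM, at 12.3, 5.86 and 5.33 RPKM, was at -0.96 and -1.07 on that scale. On reads its log2 ratios were -1.07 (-1.26 to -0.89) and -1.21 (-1.41 to -1.02). With a pseudocount of 0.1 RPKM, 5 genes of the list were lower with si-RBCK1 #1. Of the glycolytic targets, PGK1 (0.49 and 0.23), LDHA (0.36 and 0.27), ENO1 (0.13 and 0.33), PFKFB3 (0.76 and 0.77) and PFKFB4 (0.11 and 0.42) were higher than with si-Control. Only HK2 was lower, at -1.08 and -0.26. STC2 thus lay below all 26 genes in both libraries, and STC1 lay among those that were slightly higher.

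Of 12 estrogen-responsive genes, 5 passed, with medians of 0.40 and 0.34. XBP1 was lower with both siRNAs (-0.65 and -0.98). At least 2-fold lower were 0 with either siRNA, or 1 with si-RBCK1 #2 after scaling to equal medians or totals. The receptor genes ESR1 and ESR2 were under 0.1 RPKM in every library, with ESR1 at 0.0944, 0.0366 and 0.0264 RPKM. Higher by at least 2-fold with both siRNAs was 1 gene, CCND1 (cyclin D1), with listed log2 ratios of 1.31 and 1.16. Its values were the only ones among the 102 list genes that did not resolve into whole reads.

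**Figure D3:**
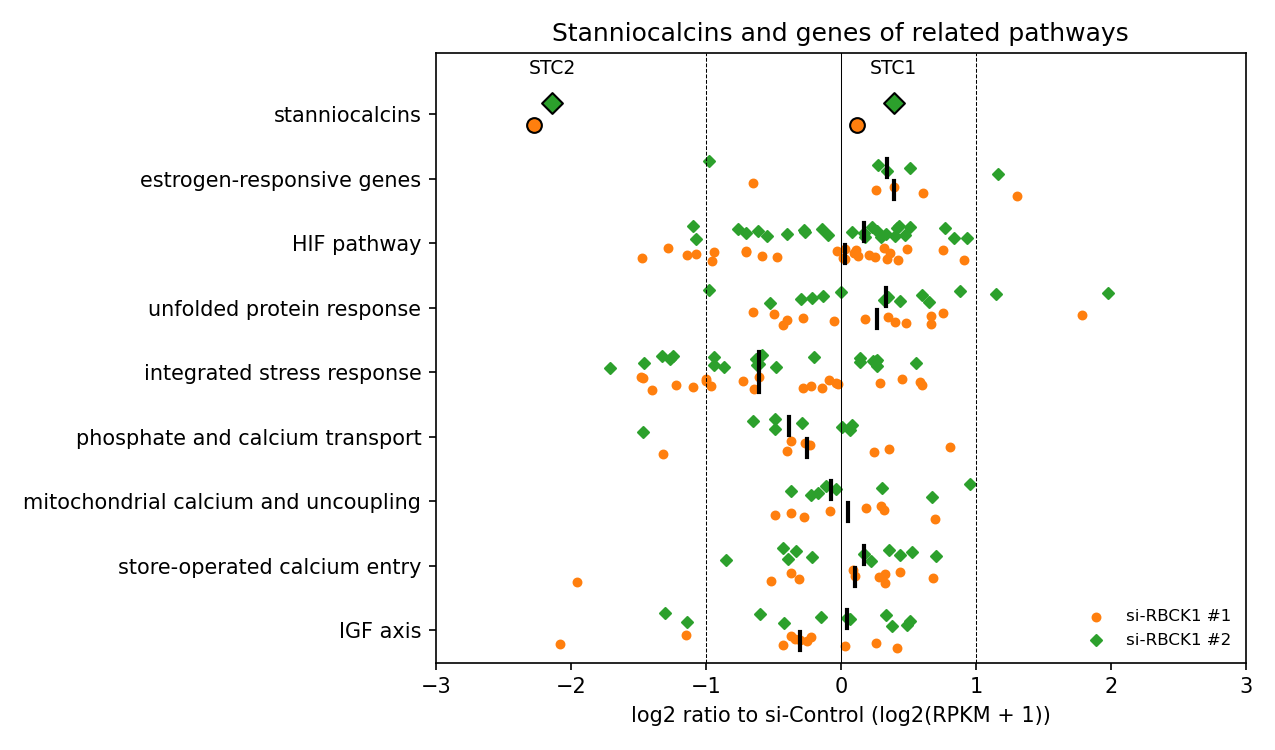
Log2 ratios to si-Control on the log2(RPKM + 1) scale for the stanniocalcins (top row) and for the members of 8 lists that passed the filter, with si-RBCK1 #1 as circles and si-RBCK1 #2 as diamonds. Black ticks are list medians and dashed lines mark 2-fold. The medians of the integrated stress response lie at -0.61 for both siRNAs, and STC2 lies left of every list member.

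The neighbourhood of each gene was read next, taking the 5 genes nearest on each side that passed the filter. Around STC2, 0 of 10 genes were past 2-fold in either library, and the medians were -0.55 and -0.43, beside 0.02 and 0.03 over all genes. Of all genes, 3.27% were at least 2-fold lower and 2.91% higher with si-RBCK1 #1, and 2.27% and 2.5% with si-RBCK1 #2. The closest start sites were those of a lincRNA at -84.5 kb, negative meaning upstream (log2 ratios of -0.70 and -0.01), of BNIP1 185 kb downstream (-0.56 and -0.51), of CREBRF, a regulator of CREB3 factors, 273 kb downstream (-0.99 and -0.85) and of BOD1, a mitotic protein, at -287 kb (-0.66 and -0.55). These 4 were lower than with si-Control in both libraries, the lincRNA with si-RBCK1 #2 by 0.01 only. Farther out the signs differed, as with ATP6V0E1 at 346 kb (0.64 and 0.37). Around STC1, 0 of 10 genes were past 2-fold, with medians of -0.20 and -0.12. Beside the shares over all genes, 0 of 10 says little about either neighbourhood.

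**Figure D4:**
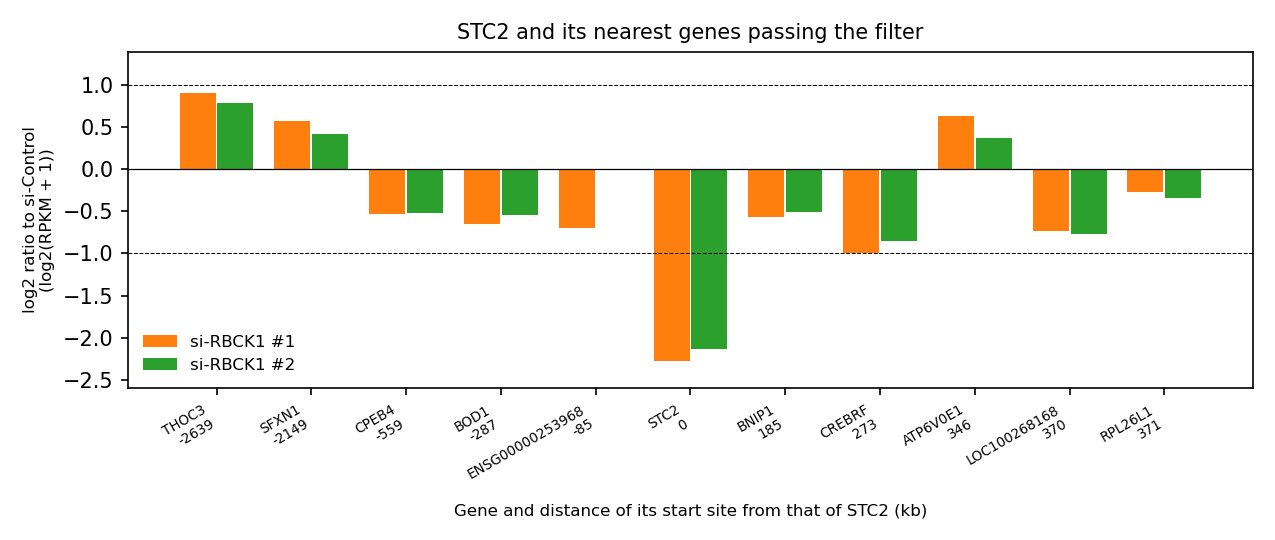
Log2 ratios to si-Control on the log2(RPKM + 1) scale for STC2 and the 5 nearest genes that passed the filter on each side, as bars for si-RBCK1 #1 and si-RBCK1 #2. Numbers under the gene names are distances between start sites in kb, negative upstream. STC2 extends past -2 in both libraries, while its neighbours lie between -0.99 and 0.90.

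For the sequence near the start of STC2, the RefSeq promoter table on GRCh38.p14 held 1 of the 2 genes. The STC2 window runs from 250 bases before to 50 after the RefSeq start, chr5:173328365-173328664 on the minus strand, and it lies inside the longer 5′ UTR that GENCODE gives STC2. Motifs were searched on both strands. The ATF4 element TGATGNAA had 0 matches, and 3.62% of the 35116 windows held at least 1. AP-1 (TGANTCA) had 0 matches beside 7.71% of windows, the kappaB motif 0 beside 11.3%, and the hypoxia core ACGTG 0 beside 21.4%. The other hypoxia core, GCGTG, had 3 matches, and 36.5% of windows held at least 1. The stretch with these matches is shown 5′ to 3′ on the gene's strand, chr5:173328626-173328655, from base -241 to -212, with matches on either strand in capitals:
STC2: catacaCACGCACGCaaacGCGTGgccgcc
A match is a string of letters and not evidence of binding, and sites outside this window were not searched.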

How the data were processed

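RNA from Caki-1 cells was sequenced with 1 library per condition (3 in all). Per the labels, ribosomal RNA was removed and a directional kit and paired-end reads were used. TopHat2, FastQC, Trimmomatic, HTSeq and hg19 are listed in the submitters' processing notes, with no role given. The authors deposited RPKM values for 44591 genes. Columns with the authors' own fold changes and p-values were not used. The si-Control entry of 1 gene is not a number and was left out.

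Ratios were taken on log2(RPKM + 1), keeping genes whose mean reached 1 RPKM, and no p-value was computed. Library totals came from genes of up to 200 nt. The smallest whole reads (within 0.0001) and length (up to 50000 nt) giving a gene's 3 values were found for 12384 of 12403 genes (99.8%). Intervals for ratios are Clopper-Pearson, for levels exact Poisson, and for the ratio of STC2 to STC1 reads conditional.

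The members, lists and settings were chosen with earlier results of these data known. Named genes are the members, RBCK1, their neighbours in position, pattern and order, list genes 2-fold changed with both siRNAs and fixed pathway genes. Other list genes were picked after their values were seen, and so was the limit of 100 RPKM for abundant genes. GENCODE v29 transcripts gave the seed search. The genes around STC1 are given by counts and medians, and their single values are not reported here. Steps were tested on simulated data. Alternatives changed the pseudocount, filter, scaling or fold limit. The work was done in Python 3.11.15 with matplotlib 3.10.9, scipy 1.17.1, pandas 2.3.3 and numpy 2.4.6.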

Additional observations from a re-analysis of the deposited data

How the results depend on the processing

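No paired analysis was possible because there was a single library per condition, and for the same reason no library could be left out. Over all alternatives, the STC2 log2 ratio ran from -2.33 to -2.21 with si-RBCK1 #1 and from -2.19 to -2.09 with si-RBCK1 #2, and that of STC1 from 0.07 to 0.13 and from 0.29 to 0.43. Each kept its sign. STC2 moved by more than its counting error at a pseudocount of 5 RPKM (-2.21 and -2.09), with equal totals (-2.33 and -2.17) and, for si-RBCK1 #2, with equal medians (-2.19). The difference of STC1 and STC2 with si-RBCK1 #2 became 2.38 at 5 RPKM.

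Counts of genes past the limit are given in the order of lower and higher with si-RBCK1 #1, lower and higher with si-RBCK1 #2, and lower and higher with both. The main counts were 405, 361, 281, 310, 175 and 181. A pseudocount of 0.1 RPKM gave 730, 616, 522, 563, 327 and 346, and 5 RPKM gave 105, 114, 97, 101, 59 and 66. A limit of 1.5-fold gave 1435, 1499, 1156, 1400, 774 and 926, and 4-fold gave 23, 24, 14, 17, 6 and 5. Keeping only genes whose mean reached 5 RPKM, so fewer genes, left 218 lower and 237 higher with si-RBCK1 #1, 174 lower with si-RBCK1 #2 and 112 lower with both. Counting protein-coding genes only, an alternative added after seeing the data, moved no count by over 1.5 times. The rank of the STC2 fall at other pseudocounts was likewise added after seeing the data.

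Of the list genes, 9 instead of 15 were 2-fold lower with si-RBCK1 #1 at 5 RPKM, and 5 instead of 3 higher with si-RBCK1 #2 at 0.1 RPKM. Of the values for single lists, 328 moved by less than their limit and 32 by more. Among 120 list medians under alternatives, 10 changed sign and 1 became 0, each in a list whose main median was within 0.39 of 0. Beyond what a limit or filter sets by construction, the cause was not tested.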
